A study of Mus musculus with 6 samples.

Results

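Akt1, Akt2, Mtor, Rptor, Rictor, Tsc1, Tsc2, Rps6kb1 and Eif4ebp1 encode the Akt kinases, the mTOR kinase with the scaffolds of its complexes, the TSC brake on mTOR, and the S6 kinase and translation repressor that mTOR phosphorylates. These 9 genes were chosen by symbol, as named kinases and regulators of the pathway, from the 12534 genes of the deposited table. All 9 were among the 12106 genes tested. RNA-seq was performed on 3 libraries of 4T1 GPD2 KO cells and 3 libraries of 4T1 WT cells, to ask how loss of GPD2 changes the transcriptome of this breast cancer line. GPD2 is the mitochondrial glycerol-3-phosphate dehydrogenase, which turns glycerol-3-phosphate into dihydroxyacetone phosphate. The Gpd2 transcript averaged 9.91 ± 0.03 TPM in KO cells and 51.9 ± 0.3 TPM in WT cells (SD, n = 3 each; TPM, a transcript abundance corrected for library size and transcript length).

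4T1 is a mouse mammary carcinoma cell line of BALB/c origin, and all 6 libraries came from cells grown in RPMI medium. KO cells carry a CRISPR-Cas9 disruption of GPD2 and were selected with puromycin and cloned from single cells. The study names 1 KO clone for its pathway analysis of these data, so the knockout and the history of that clone cannot be told apart. The labels' treatment field names the guide and Cas9 vector for the WT samples too, and whether WT cells met the vector is not known. The labels do not say whether libraries of a genotype came from separate cultures, so the p-values measure the spread between these libraries, which may be technical. The libraries held 51186527 to 55645413 counts in KO cells and 53464439 to 59846170 counts in WT cells. Of 6 epithelial markers, the 3 keratins Krt7, Krt8 and Krt18 were measured, and they summed to 986.7 to 1034 TPM in KO libraries, against 1709 to 1804 TPM in WT libraries. Epcam, Cdh1 and Cldn7 were not analysed here. For other cell types, the measured markers summed to 42.1 to 45.6 TPM in KO libraries and 54.2 to 56.8 TPM in WT libraries for macrophages (4 of 6 markers), and to 18.9 to 23.2 TPM in KO libraries and 39.7 to 40.8 TPM in WT libraries for fibroblasts (2 of 6). The single measured endothelial marker (Cdh5) lay at 1.683 to 2.105 TPM in KO libraries and 11.1 to 11.6 TPM in WT libraries, and the single lymphocyte marker (Cd79a) at 0.33 to 0.44 TPM in KO libraries and 0.08 to 0.18 TPM in WT libraries. All 6 libraries came from cultures of the 4T1 line, so these sums do not show that other cell types were present. The part of these differences in the results was not tested. In bulk RNA, fewer cells expressing a marker and less of its RNA per cell cannot be told apart.

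Growth factor receptors act through PI3K to bring Akt to the plasma membrane, where PDK1 phosphorylates its activation loop and mTOR complex 2, built around Rictor, phosphorylates its hydrophobic motif. Active Akt phosphorylates Tsc2, which relieves the brake that the Tsc1 and Tsc2 complex puts on the small GTPase Rheb, and Rheb then activates mTOR complex 1, built around Rptor, on the lysosome. Complex 1 promotes protein synthesis by phosphorylating the S6 kinase Rps6kb1 and the repressor Eif4ebp1, which reach it through a short TOS motif that binds Rptor. These steps are set by phosphorylation, which transcript levels do not measure.

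The coding sequences around the phosphorylation sites and TOS motifs of these kinases and substrates are shown first. For Akt1 and Akt2, paralogs whose reads must be told apart, they also show how far the genes differ at the phosphorylation sites. All these sequences were taken from the GENCODE transcripts on mm10 and are written 5′ to 3′ along the gene's own strand. In the activation loop, capitals mark the codon of the threonine that is phosphorylated. It is codon 308 of Akt1 (chr12:112657101-112657103, minus strand), codon 309 of Akt2 (chr7:27636132-27636134, plus strand) and codon 252 of Rps6kb1 (chr11:86513570-86513572, minus strand).
Akt1 activation loop: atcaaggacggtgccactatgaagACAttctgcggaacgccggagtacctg
Akt2 activation loop: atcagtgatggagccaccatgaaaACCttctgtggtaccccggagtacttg
Rps6kb1 activation loop: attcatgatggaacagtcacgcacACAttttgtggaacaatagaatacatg
Over these 51 bases Akt1 differed from Akt2 at 11 positions and from Rps6kb1 at 21.

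In the hydrophobic motif, capitals mark the codon phosphorylated by mTOR complex 2 in Akt and by mTOR complex 1 in the S6 kinase. It is codon 473 of Akt1 (chr12:112654722-112654724), codon 474 of Akt2 (chr7:27638115-27638117) and codon 412 of Rps6kb1 (chr11:86504370-86504372). Codons of Rps6kb1 are counted from the first start codon, and its shorter p70 form begins at codon 24.
Akt1 hydrophobic motif: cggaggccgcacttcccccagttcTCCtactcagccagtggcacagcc
Akt2 hydrophobic motif: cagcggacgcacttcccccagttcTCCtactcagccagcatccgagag
Rps6kb1 hydrophobic motif: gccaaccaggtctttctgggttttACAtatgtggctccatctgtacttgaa
Over 48 bases Akt1 differed from Akt2 at 10 positions and from Rps6kb1 at 33.

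The TOS motif is the contact with Rptor that the S6 kinase and Eif4ebp1 share, and capitals mark its 5 codons. It starts at codon 28 of Rps6kb1 (chr11:86544611-86544625, minus strand) and at codon 113 of Eif4ebp1 (chr8:27275094-27275108, plus strand), where it ends the protein.
Rps6kb1 TOS motif: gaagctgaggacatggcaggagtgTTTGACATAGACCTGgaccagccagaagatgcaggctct
Eif4ebp1 TOS motif: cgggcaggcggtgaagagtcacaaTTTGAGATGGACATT
Over the aligned bases of the coding sequences, gaps left out, Akt1 was 77.5% identical to Akt2 (1437 bases aligned). The longest exact stretch that their transcripts shared was 32 bases. Counted in the same way, Rps6kb1 was 70.05% identical to Rps6kb2, with 1449 of the 1575 coding bases of Rps6kb1 aligned. Eif4ebp1 was 69.1% identical to Eif4ebp2 (346 bases aligned). The longest shared stretch was 14 bases in each of these pairs.

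Transcripts of 7 of the 9 genes differed between KO and WT cells by edgeR's quasi-likelihood test with Benjamini-Hochberg adjustment over all genes tested. Akt1, Akt2, Tsc1 and Eif4ebp1 were higher in KO cells, Tsc2, Rptor and Rps6kb1 were lower, and Mtor and Rictor did not pass the test. By the same test 66.8% of all genes tested changed, 33.5% higher and 33.3% lower, so a count of 7 of 9 is near the background. The values of those 7 genes also did not overlap between KO and WT libraries in TPM, which held for 70.7% of all genes tested, 35.2% higher and 35.5% lower in KO cells. The differences were small. The median absolute log2 fold change was 0.26 over the 9 genes and 0.29 over all genes tested, and the median log2 fold change over all genes tested was -0.00081. By the thresholds of the study, a fold of at least 2 with an unadjusted p under 0.05 from edgeR's exact test, 0 of the 9 genes passed, against 8.64% of all genes tested. By the quasi-likelihood test 7 had an unadjusted p under 0.05, as did at least the 66.8% of all genes tested that passed after adjustment. DESeq2 called 7 of the 9 genes and 8050 of all genes tested.

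**Figure D1:**
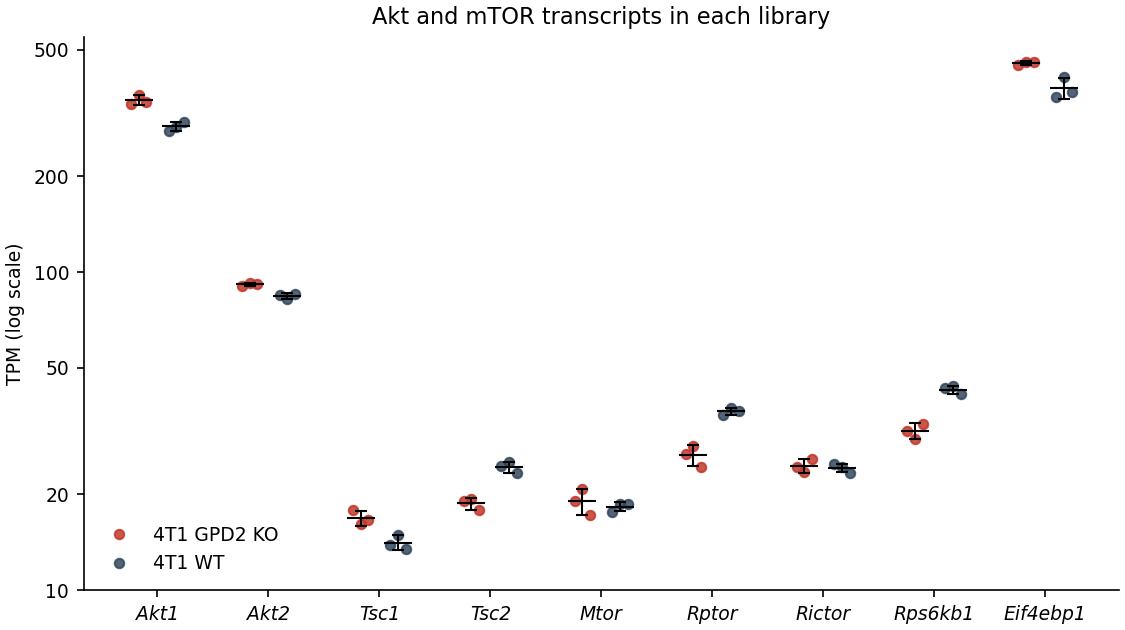
TPM of the 9 genes in each library on a log scale, with 4T1 GPD2 KO (red) left of 4T1 WT (blue) for each gene. Points are libraries, horizontal bars are means and error bars are 1 SD (n = 3 each). KO and WT points of Mtor and of Rictor overlap, and those of the other 7 genes do not.

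Akt1 (Entrez 11651, chr12:112653821-112674884, minus strand) encodes the most widely expressed Akt kinase. It had 338.4, 361.5 and 342.5 TPM in the KO libraries, against 277.5, 287.0 and 297.0 TPM in the WT libraries. The lowest KO library lay above the highest WT library, and the spread within each genotype was alike, at 3.55% of the mean in KO cells and 3.39% in WT cells. Akt1 was 1.21-fold higher in KO cells, a log2 fold change of 0.28 ± 0.04 (SE; edgeR quasi-likelihood adjusted p = 0.000289), the largest rise among the 9 genes. Counts behind these values were 21154 to 24377 in KO libraries and 18967 to 21227 in WT libraries.

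Akt2 (chr7:27591552-27640826, plus strand) encodes the isoform best known for insulin-stimulated glucose uptake. Its KO libraries held 90.7, 92.4 and 91.8 TPM, against 84.6, 82.3 and 85.6 TPM in the WT libraries. All KO values lay above all WT values, and the gap between the nearest libraries, 90.7 TPM in KO and 85.6 TPM in WT cells, was wider than the range within either genotype. Akt2 was 1.09-fold higher in KO cells, a log2 fold change of 0.13 ± 0.04 (SE; edgeR adjusted p = 0.0136), the smallest change among the 7 that passed. The call was lost with upper-quartile scaling of the libraries, which gave a log2 fold change of 0.08 (adjusted p = 0.072). The range of adjusted p over all alternatives was 0.00244 to 0.072.

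Akt1 was more abundant than Akt2 in every library of both genotypes. The ratio of Akt1 to Akt2 TPM within a library was 3.73, 3.91 and 3.73 in KO cells, against 3.28, 3.49 and 3.47 in WT cells. These did not overlap, and the exact two-sided permutation test gave p = 0.1, the smallest that 3 libraries against 3 can give (0.125 adjusted over 5 ratios).

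Among the 12 Akt kinases and direct regulators listed, 5 rose, 4 fell and 3 did not pass, with a median log2 fold change of 0.08. Of this list 75% changed, where 66.8% of all genes tested changed, 33.5% higher and 33.3% lower. Besides Akt1, the rises included Trib3, a pseudokinase reported to bind Akt, at 81.7 ± 7.4 TPM in KO cells and 38.0 ± 5.6 TPM in WT cells (log2 fold change 1.11, edgeR adjusted p = 1.27e-05). Among the falls was Phlpp1, a phosphatase of the Akt hydrophobic motif printed above, at 9.39 ± 0.03 TPM in KO cells and 12.1 ± 0.1 TPM in WT cells (-0.37, adjusted p = 2.17e-05). Ppp2r2a, a PP2A subunit linked to Akt dephosphorylation, also fell, to 63.4 ± 1.9 TPM in KO cells, against 81.5 ± 0.6 TPM in WT cells. Of 10 Akt substrates outside the TSC branch, 3 rose, 1 fell and 6 did not pass. The share that changed was 40%, against 66.8% of all genes tested. Gsk3a and Gsk3b, the glycogen synthase kinases that Akt inhibits, rose by log2 fold changes of 0.39 and 0.40 (edgeR adjusted p = 9.47e-05 and 0.000514). The single fall, that of the cell cycle inhibitor Cdkn1b (log2 fold change -0.11, edgeR adjusted p = 0.0168), lost its call without WT replicate 1 (-0.11, adjusted p = 0.055) or WT replicate 3 (-0.10, adjusted p = 0.0587).

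Tsc1 and Tsc2 encode the subunits of 1 complex, and their transcripts changed in opposite directions. Tsc1 (chr2:28640993-28691172, plus strand) encodes hamartin, which stabilises Tsc2. It had 17.9, 16.2 and 16.6 TPM in the KO libraries, against 13.9, 14.9 and 13.5 TPM in the WT libraries. The ranges did not overlap, though the gap between them was smaller than the range within either genotype. Tsc1 was 1.197-fold higher in KO cells (log2 fold change 0.26 ± 0.05 SE, edgeR adjusted p = 0.00138). Tsc2 (chr17:24595816-24632676, minus strand) encodes tuberin, which carries the GTPase-activating activity towards Rheb and is the part of the complex that Akt phosphorylates. It had 19.1, 19.3 and 17.8 TPM in the KO libraries, against 24.6, 25.3 and 23.3 TPM in the WT libraries. All KO libraries were below all WT libraries, and Tsc2 in KO cells was 0.77 of its WT level (log2 fold change -0.38 ± 0.05 SE, edgeR adjusted p = 7.38e-05).

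Within libraries, the ratio of Tsc1 to Tsc2 TPM was 0.94, 0.84 and 0.93 in KO cells, against 0.56, 0.59 and 0.58 in WT cells, a 1.56-fold difference (exact permutation p = 0.1, the smallest possible, 0.125 adjusted over 5 ratios). Because it is taken inside a library, this ratio does not depend on how libraries are scaled to each other. The ratio was nearer 1 in every KO library than in any WT library. All 5 genes of the list for the TSC complex and Rheb changed, with a median log2 fold change of 0.22, where 66.8% of all genes tested changed. Rheb itself, the GTPase between the complex and mTOR, averaged 160.0 ± 3.9 TPM in KO cells and 137.7 ± 8.8 TPM in WT cells (log2 fold change 0.22, edgeR adjusted p = 0.00403). Tbc1d7, the remaining subunit of the complex, fell with Tsc2, to 6.81 ± 0.72 TPM in KO cells, against 9.28 ± 0.16 TPM in WT cells (-0.45, adjusted p = 0.00407). The Rheb paralog Rhebl1 rose by 0.32 on the log2 scale (adjusted p = 0.00533).

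**Figure D2:**
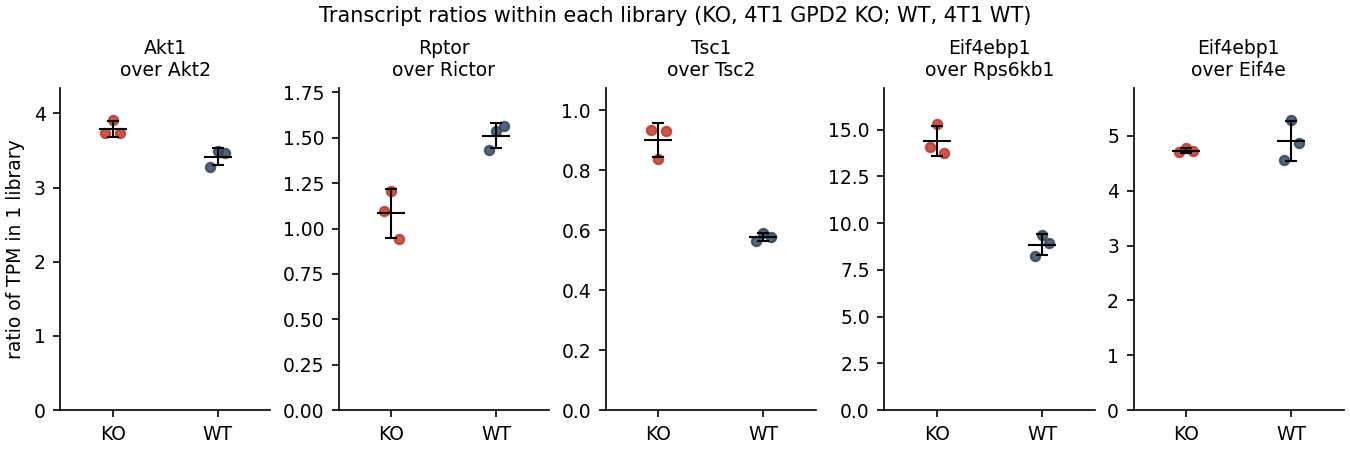
Ratios of TPM between a pair of genes within each library, with KO libraries left of WT libraries and each axis starting at 0. Points are libraries, horizontal bars are means and error bars are 1 SD (n = 3 each). KO and WT points overlap only for Eif4ebp1 over Eif4e.

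Mtor (chr4:148448582-148557685, plus strand) encodes the kinase that both complexes contain. It had 19.1, 20.8 and 17.2 TPM in the KO libraries, against 17.7, 18.6 and 18.6 TPM in the WT libraries. The KO libraries enclosed the WT range, with a spread of 9.30% of the mean in KO cells and 3.06% in WT cells. The log2 fold change was 0.06 with a 95% interval of -0.08 to 0.20 (edgeR adjusted p = 0.435), so a fold below 0.94 or above 1.15 lay outside the interval.

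Rptor (chr11:119602905-119899591, plus strand) encodes raptor, the scaffold that brings TOS motif substrates to mTOR complex 1. Its KO libraries held 26.8, 28.4 and 24.4 TPM, against 35.6, 37.4 and 36.6 TPM in the WT libraries. The highest KO library was below the lowest WT library by more than the range within either genotype. In KO cells Rptor was at 0.73 of its WT level (log2 fold change -0.46 ± 0.06 SE, edgeR adjusted p = 5.71e-05), the largest change among the 9 genes and larger in size than that of 70.3% of all genes tested.

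Rictor (chr15:6708349-6800401, plus strand) encodes the scaffold of mTOR complex 2, which phosphorylates the Akt hydrophobic motif. It had 24.4, 23.5 and 25.9 TPM in the KO libraries, against 24.9, 24.4 and 23.4 TPM in the WT libraries. These ranges overlapped, and the log2 fold change was 0.02 with a 95% interval of -0.08 to 0.13 (edgeR adjusted p = 0.653). Rptor over Rictor TPM was 1.098, 1.209 and 0.944 in KO libraries, against 1.433, 1.535 and 1.565 in WT libraries, a fold of 0.71 between the genotypes (exact permutation p = 0.1, the smallest possible, 0.125 adjusted). These ratios did not overlap.

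Of the 5 genes listed for mTOR complex 1, 1 rose, 2 fell and 2, Mtor and Mlst8, did not pass. The share that changed was 60%, against 66.8% of all genes tested. Mlst8, a subunit that binds the mTOR kinase domain in both complexes, averaged 12.1 ± 0.6 TPM in KO cells and 11.5 ± 0.8 TPM in WT cells (log2 fold change 0.08, edgeR adjusted p = 0.339). The subunits that inhibit mTOR also changed in opposite directions. Akt1s1, also known as PRAS40, an Akt substrate that holds complex 1 back, averaged 193.1 ± 9.995 TPM in KO cells and 120.3 ± 6.952 TPM in WT cells (0.67, adjusted p = 9.15e-06). Deptor, an inhibitor found in both complexes, averaged 63.2 ± 0.2 TPM in KO cells and 96.8 ± 3.1 TPM in WT cells (-0.61, adjusted p = 6.35e-07). Around Rictor, the 11 genes listed for mTOR complex 2 and its substrates gave 3 rises, 5 falls and 3 that did not pass. Of these 11, 72.7% changed, against 66.8% of all genes tested. The complex 2 substrates Prkca and Sgk1 fell by log2 fold changes of -0.79 and -0.72 (edgeR adjusted p = 6.08e-08 and 3.08e-07). With Trib3, the genes of this pathway that passed the fold of 2 thresholds were Sgk3 at 1.32 ± 0.16 TPM in KO cells and 0.55 ± 0.04 TPM in WT cells, and Prr5l at 0.25 ± 0.10 TPM in KO cells and 0.60 ± 0.09 TPM in WT cells. Sgk3 and Prr5l were chosen for mention with their values known.

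**Figure D3:**
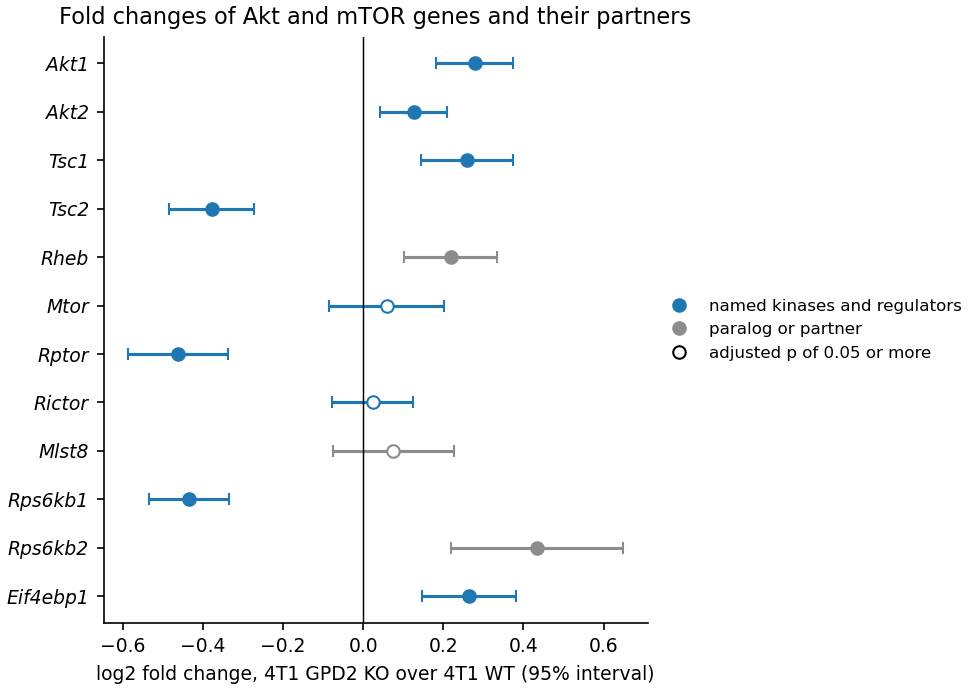
Log2 fold changes of 4T1 GPD2 KO over 4T1 WT with 95% intervals from edgeR's quasi-likelihood fit, for the 9 genes (blue) and for Rheb, Mlst8 and Rps6kb2 (grey). Open circles mark an adjusted p of 0.05 or more. Rptor and Rps6kb1 lie farthest below 0 and Rps6kb2 farthest above it.

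Rps6kb1 (chr11:86498869-86544885, minus strand) encodes S6 kinase 1, which phosphorylates ribosomal protein S6. It had 31.7, 29.8 and 33.4 TPM in the KO libraries, against 43.2, 43.7 and 41.4 TPM in the WT libraries. All KO libraries lay below the WT libraries, and Rps6kb1 in KO cells was at 0.74 of its WT level (log2 fold change -0.44 ± 0.04 SE, edgeR adjusted p = 1.95e-05), the smallest adjusted p among the 9 genes. Its paralog Rps6kb2, which encodes S6 kinase 2, moved the other way, at 16.4 ± 1.4 TPM in KO cells and 12.2 ± 1.1 TPM in WT cells (0.43, adjusted p = 0.00274). Rps6kb1 was the more abundant S6 kinase transcript in both genotypes.

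Eif4ebp1 (chr8:27260327-27275656, plus strand) encodes 4E-BP1, which binds the cap-binding protein Eif4e and releases it when mTOR complex 1 phosphorylates it. It had 446.6, 456.4 and 459.2 TPM in the KO libraries, against 356.1, 410.4 and 369.2 TPM in the WT libraries. The KO libraries were close together, with a spread of 1.46% of the mean against 7.49% in WT cells, and WT replicate 2 was the nearest to them. Eif4ebp1 was 1.201-fold higher in KO cells (log2 fold change 0.26 ± 0.05 SE, edgeR adjusted p = 0.00142).

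The transcripts of these mTOR complex 1 substrates changed in opposite directions. Eif4ebp1 over Rps6kb1 TPM was 14.1, 15.3 and 13.7 in KO libraries, against 8.25, 9.39 and 8.93 in WT libraries, a 1.62-fold difference (exact permutation p = 0.1, the smallest possible, 0.125 adjusted). Eif4e rose alongside its repressor, at 95.9 ± 1.1 TPM in KO cells and 77.1 ± 1.2 TPM in WT cells (log2 fold change 0.32, edgeR adjusted p = 3.48e-05). Eif4ebp1 over Eif4e TPM was 4.70, 4.78 and 4.73 in KO libraries, against 4.56, 5.30 and 4.87 in WT libraries. These ranges overlapped, and the mean log2 difference was -0.05 (exact permutation p = 0.6, 0.6 adjusted).

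In the S6 kinase branch, all 8 listed genes changed, 3 higher and 5 lower, with a median log2 fold change of -0.24, where 66.8% of all genes tested changed. Rps6, the ribosomal protein that Rps6kb1 phosphorylates, averaged 1082 ± 29 TPM in KO cells and 1347 ± 16 TPM in WT cells (-0.31, edgeR adjusted p = 8.25e-06). Eef2k, the elongation factor kinase that S6 kinase inhibits, rose by 0.42 on the log2 scale (adjusted p = 1.42e-05), and Rps6ka3, a ribosomal S6 kinase of the ERK pathway, rose by 0.47 (adjusted p = 9.84e-06). Of the 11 genes of the 4E-BP and cap-binding branch, 5 rose, 4 fell and 2 did not pass, with a median of 0.07. Of these 11, 81.8% changed, against 66.8% of all genes tested. The helicase Eif4a1 averaged 1698 ± 33 TPM in KO cells and 2332 ± 30 TPM in WT cells (-0.46, edgeR adjusted p = 4.84e-07). The scaffolds that join Eif4e to it changed in opposite directions, with Eif4g1 at a log2 fold change of 0.39 (adjusted p = 5.62e-06) and Eif4g3 at -0.60 (adjusted p = 2.84e-06). Of 6 other mTOR complex 1 substrates measured, 2 rose, 3 fell and 1 did not pass, so 83.3% changed, against 66.8% of all genes tested. The autophagy kinase Ulk1 (0.24), the lipid regulator Lpin1 (0.37) and the transcription factor Tfe3 (-0.20) had the smallest adjusted p (0.000472, 0.00058 and 0.0014 by edgeR).

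Inputs to Rptor and Tsc2 were mixed in direction as well. In the Rag, GATOR and energy lists that follow, 63.6%, 71.4% and 42.9% changed, against 66.8% of all genes tested. Among 11 measured genes of the list that joins the Rag GTPases and Ragulator, which hold Rptor on the lysosome when amino acids are present, with the folliculin complex and the lysosomal transporter Slc38a9, 5 rose, 2 fell and 4 did not pass, with a median log2 fold change of 0.13. The Rag GTPase Rragc, the folliculin partner Fnip2 and the Ragulator subunit Lamtor1 rose by 0.46, 0.53 and 0.45 on the log2 scale (edgeR adjusted p = 3.04e-06, 6.16e-06 and 9.2e-06). Among the 14 genes of the GATOR and KICSTOR complexes and their sensors, which control the Rag GTPases, 3 rose, 7 fell and 4 did not pass, with a median of -0.16. Wdr59 and Sesn3 fell by 0.62 and 0.89 on the log2 scale, and Sec13 rose by 0.33 (edgeR adjusted p = 1.02e-06, 1.67e-06 and 9.19e-05). Of 7 measured energy and stress inputs, 1 rose, 2 fell and 4 did not pass. Stk11, the kinase upstream of AMPK, rose by 0.24, while the AMPK subunits Prkaa1 and Prkab1 fell by 0.22 and 0.11 (edgeR adjusted p = 0.000248, 0.00102 and 0.0381). The call on Prkab1 was lost without KO replicate 1 (-0.11, adjusted p = 0.068), KO replicate 3 (-0.11, 0.071), WT replicate 1 (-0.11, 0.125) or WT replicate 2 (-0.09, 0.113). Without the 9 genes, the lists held 88 tested genes, of which 63 (71.6%) changed, 30 higher and 33 lower, with a median absolute log2 fold change of 0.25. This share is near the 66.8% of all genes tested that changed (33.5% higher and 33.3% lower).

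**Figure D4:**
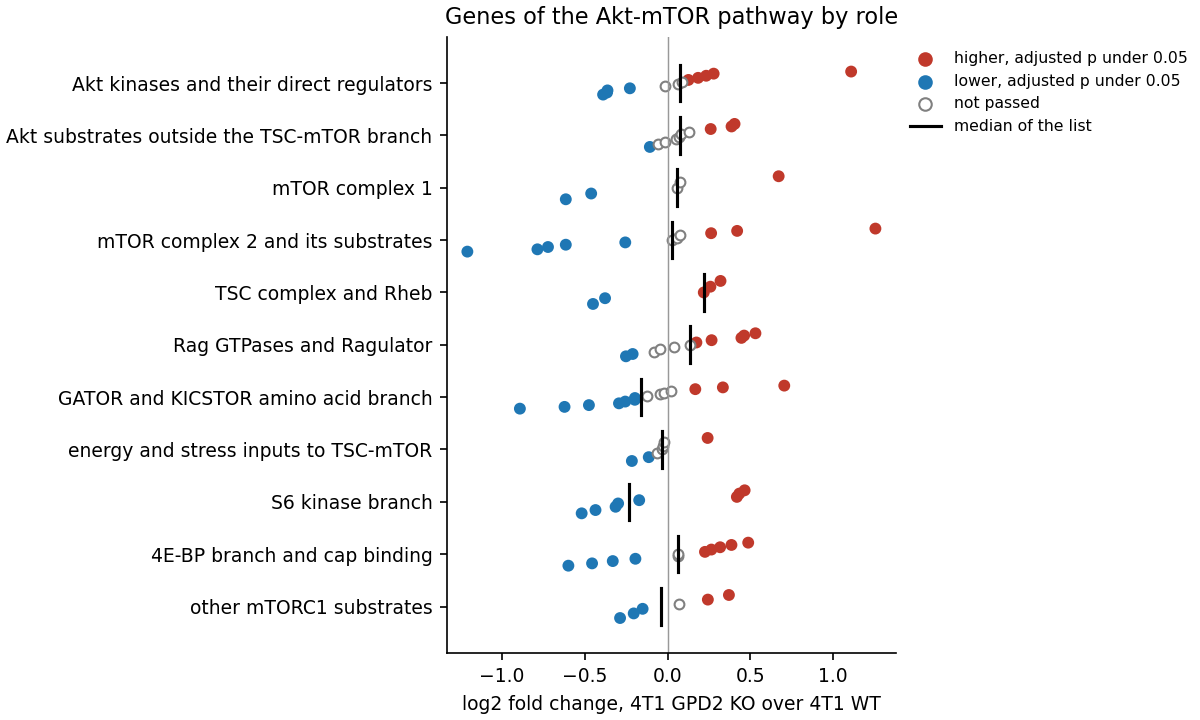
Log2 fold change of 4T1 GPD2 KO over 4T1 WT for each tested gene of 11 lists of the Akt and mTOR pathway, the 9 genes included. Red points were higher and blue points lower in KO cells at an adjusted p under 0.05, open points did not pass, and vertical bars are list medians. The row for Rag GTPases and Ragulator also holds the folliculin complex and Slc38a9. Each list holds points on both sides of 0.

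By level, the 9 transcripts spanned a wide range in both genotypes. In KO cells the mean TPM ran Eif4ebp1 (454), Akt1 (347), Akt2 (91.6), Rps6kb1 (31.7), Rptor (26.6), Rictor (24.6), Mtor (19.0), Tsc2 (18.7) and Tsc1 (16.9). Neighbours in this order whose library ranges overlapped were Rptor and Rictor, Mtor and Tsc2, and Tsc2 and Tsc1. In WT cells the order was Eif4ebp1 (378.5), Akt1 (287), Akt2 (84.2), Rps6kb1 (42.8), Rptor (36.6), Tsc2 (24.4), Rictor (24.2), Mtor (18.3) and Tsc1 (14.1), and only Tsc2 and Rictor overlapped as neighbours. Tsc2 thus stood above Mtor in every WT library but within the range of Mtor in KO libraries. In WT TPM, Eif4ebp1 and Akt1 were at or above 97.0% and 95.8% of the 12534 genes of the deposited table, whereas Tsc1 was at or above 38.2%.

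The genes whose pattern over the 6 libraries was most like that of Akt1 were Trip6, Actl6a and Slc16a6, with root mean square differences of centred log2 CPM of 0.017, 0.017 and 0.019. Those most like Rptor were Flna, Carns1 and Srebf1, at 0.026, 0.032 and 0.034. Genes with predicted or clone names were left out of both matches. Because the match was made over the same 6 libraries, it fixes the direction of the KO and WT difference, and their log2 fold changes were 0.30, 0.29 and 0.30 in the set matched to Akt1 and -0.48, -0.51 and -0.50 in the set matched to Rptor.

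Whether the authors counted reads by strand was not given in the sources used here, and exons that overlap a gene on the opposite strand may share reads with it. Among the 9 genes the 3 that fell had such an overlap in the GENCODE annotation, and the other 6 had none. Tsc2 shares 693 bases, 7.20% of its exon bases, with Pkd1, which averaged 122.0 ± 7.4 CPM in KO cells and 135.5 ± 5.0 CPM in WT cells (log2 fold change -0.15, edgeR adjusted p = 0.0264). The call on Pkd1 was lost without KO replicate 3 (-0.11, adjusted p = 0.088), WT replicate 1 (-0.15, 0.0573) or WT replicate 3 (-0.13, 0.0847). Rps6kb1 shares 155 bases (1.79%) with Rnft1, which averaged 34.6 ± 0.4 CPM in KO cells and 49.2 ± 3.3 CPM in WT cells (-0.51, adjusted p = 2.14e-05). Rptor shares 84 bases (0.624%) with Rptoros, which was not analysed here. The part of these overlaps in the falls was not tested.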

How the data were processed

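Poly(A) RNA of 3 4T1 GPD2 KO and 3 4T1 WT libraries was sequenced with a stranded kit. Per the study's methods and the submitters' processing notes, the authors used Trimmomatic 0.38 for trimming, HISAT2 2.1.0 for alignment to mm10 and StringTie 1.3.4d for transcript assembly. Whether reads were counted by strand was not given in the sources used here. The deposited table holds raw read counts per gene, with FPKM and TPM per library as computed by the authors. Its log2 columns, which the authors derived from scaled counts, were not used. Further deposited columns hold the authors' own comparison (signed fold, mean log2 CPM, raw and adjusted p, group means) and were not used.

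The labels' genotype gave the groups. Counts were fitted across all genes in R 4.3.3 with edgeR 4.0.16: TMM scaling, filterByExpr with a minimum count of 10 (12106 of 12534 genes kept), glmQLFit and glmQLFTest, and Benjamini-Hochberg adjustment at 0.05. Standard errors and 95% intervals were derived from the quasi-likelihood F. Levels are TPM, so genes can be compared per length. Ratios of TPM were compared by an exact two-sided permutation test over libraries, adjusted over 5 ratios. Totals were 51186527 to 59846170 counts per library, and differences between replicates exceeded sampling noise. The workflow was also run on simulated counts in which far fewer genes changed than were called in these data, and that outcome is not used here. Alternatives used other scalings, no filter, DESeq2 1.42.0, limma 3.58.1 with trend on log2(TPM + 1) and log2(TPM + 0.1), a replicate block, and each library left out.

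The 9 genes and the 11 pathway lists were chosen with earlier results of these data known. Genes named are the 9, Gpd2, Mlst8, Rheb, Rps6kb2, up to 3 others per list by smallest adjusted p, and the 3 genes most like Akt1 and most like Rptor, the largest rise and fall. The match left out genes with predicted or clone names. Sgk3 and Prr5l were chosen after their values were seen, and the text also gives the cell type markers, Eif4e, which was fixed as a ratio partner, and the genes that overlap a named gene. Positions follow RefSeq on GRCm38 (mm10), and exons and coding sequences from GENCODE M21. An item of this rule is not reported here.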

Additional observations from a re-analysis of the deposited data

How the results depend on the processing

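The count of 7 changed genes among the 9 was the same under every alternative run except upper-quartile scaling (6, without Akt2, whose log2 fold change was then 0.0837) and the thresholds of the study (0). By those thresholds 3 of the 88 other pathway genes passed, against 63 at an adjusted p under 0.05, and 1046 of all genes, against 8085. Leaving out 1 library at a time gave log2 fold changes of 0.24 to 0.30 for Akt1, 0.11 to 0.14 for Akt2, 0.22 to 0.30 for Tsc1, -0.41 to -0.35 for Tsc2, -0.0216 to 0.12 for Mtor, -0.0183 to 0.0449 for Rictor, -0.53 to -0.41 for Rptor, -0.48 to -0.41 for Rps6kb1 and 0.22 to 0.32 for Eif4ebp1, and 57 to 64 other pathway genes and 7433 to 7783 genes in all were called. The sign turned only for values that had not passed the test: Mtor without KO replicate 2 (-0.0216, edgeR adjusted p = 0.729, range over alternatives 0.0788 to 0.834), Rictor under upper-quartile scaling (-0.0182, adjusted p = 0.739) and without KO replicate 3 (-0.0183, adjusted p = 0.75, range 0.441 to 0.977), and the log2 ratio of Eif4ebp1 over Eif4e without WT replicate 2 (0.0053). Leaving out libraries, that ratio ranged between -0.10 and 0.0053, and the others between 0.12 and 0.17 (Akt1 over Akt2), -0.57 and -0.39 (Rptor over Rictor), 0.61 and 0.69 (Tsc1 over Tsc2) and 0.65 and 0.74 (Eif4ebp1 over Rps6kb1). The cause of these shifts was not tested. Deviations of libraries that share a replicate number had correlations of 0.0395, 0.0477 and -0.0137. Those of the other pairs ranged from -0.125 to 0.0865. With 3 libraries per genotype, these values cannot show whether a replicate number stands for a shared batch. With the replicate number as a block, 7 of the 9, 63 other pathway genes and 7974 genes in all were called.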
